A study of Mus musculus with 12 samples.

Results

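The erythroid and heme synthesis genes examined here are 33 genes that developing red cells use to make heme, take up iron, build the red cell membrane and control their own differentiation. Each was represented by the array feature whose annotation gave that symbol alone. A feature was found for 32 of the 33 genes, 1 feature each, among the 28853 features of the array. All 32 met the filter for testing, a mean log2 signal of at least 5.3, which does not by itself show expression on every array. The defining erythroid genes Alas2 and Slc4a1 were measured in all control joints, at 7.43 to 10.21 in log2 units. Ahsp, which encodes a chaperone of alpha globin, was matched to no such feature and was not analysed here. The members comprise 7 heme synthesis genes, 3 genes for iron and glycine transport, 5 genes of the membrane skeleton, 7 blood group and surface genes, 5 genes for transcription factors and the erythropoietin receptor, and 5 other erythroid genes.

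Gene expression was measured in total RNA of whole ankle joints from 12 C57BL/6 mice, 1 array per mouse, in 4 groups of 3. The groups were arthritic Mmp8-/- mice, control Mmp8-/- mice, arthritic Mmp8+/+ mice and control Mmp8+/+ mice, where Mmp8-/- mice lack the collagenase Mmp8 in all cells. Arthritis was induced by intraperitoneal transfer of 150 µl of serum pooled from arthritic K/BxN mice at days 0 and 2, and ankles were taken at day 7. All mice were stated to be male, recipients of serum were 6 to 8 weeks old, and what control mice received and their age are not given in the sources used here. The transferred antibodies start arthritis in mice that make none of their own, so the model covers the effector phase of disease. Ankles were frozen and pulverized, and a removal of the bone marrow was not stated.

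Red cells arise in the bone marrow from progenitors that respond to erythropoietin. Gata1, Klf1 and Tal1 then switch on genes for heme synthesis, hemoglobin and the membrane, and the transferrin receptor brings in the iron that ferrochelatase inserts into protoporphyrin. Enzymes of the heme pathway other than Alas2 are made by all cells, and more of them by erythroid cells. Inflammation is known to restrain marrow red cell production and to withhold iron from it. In RNA of a whole joint, fewer erythroid cells and less of an RNA per cell cannot be told apart, and marrow red cell production itself was not measured.

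Some arrays went against their labels. Mmp8 read 10.65 in log2 units in Mmp8-/- control mouse 2, against 4.64 to 5.54 on the other 5 Mmp8-/- arrays and 10.21 to 11.16 on the 6 Mmp8+/+ arrays. Xist, a transcript of female cells, read 10.92 in Mmp8-/- control mouse 1 and 10.42 in Mmp8+/+ control mouse 1, against 4.66 to 5.41 on the other 10 arrays. Eif2s3y, a gene of the Y chromosome, read 4.16 and 4.02 on these arrays, against 7.94 to 9.27 on the other 10. Both arrays thus read as female and both are controls, so sex was not balanced between arthritic and control mice. Mice are numbered 1 to 3 within a group, as names only, and the counts of members that passed, and the Mmp8-/- effects that shifted most, are given with and without these arrays. All levels below are log2 signals of the deposited table, so a difference of 1 is a doubling. Groups were compared with limma over 17450 features, and a gene rose or fell where the p-value adjusted over all of these by the Benjamini-Hochberg method was below 0.05. Each effect is a log2 fold change with its standard error (SE). Signals of different genes depend on their probes and were not compared.

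The promoters of members were searched on both strands for the letters AGATAA, which Gata1 is known to bind, and for CCNCNCCC. The latter is a pattern that fits the CACC boxes Klf1 is known to bind. It does not require the letters CACC and also fits runs of C. Its matches, called CACC matches here, need not be CACC boxes. RefSeq windows of 300 bases in GRCm38.p6, from 250 bases before to 50 after the start of the gene, were at hand for 26 of the 32 members. AGATAA was found for 10 of these 26 genes (38.5%), against 12.7% of all 27025 genes with a window. CCNCNCCC was found for 19 of 26 (73.1%), against 51.9% of all genes. Both stood in the same window for 6 members (23.1%), against 3.98% of all genes, and these were Alas2, Cpox, Epor, Hemgn, Icam4 and Rhd. The CACC matches of Hemgn lie in a run of G, and that of Cpox is GGGAGCGG. Shown are the windows of Alas2 (chrX:150547167-150547466, plus strand) and Trim10 (chr17:36869324-36869623, plus strand), which fell with arthritis, of Cpox (chr16:58669958-58670257, plus strand), which rose, and of Epor (chr9:21963527-21963826, minus strand), which passed the test in no comparison. Each is read in the direction of the gene, with the matches in capitals. TTATCT is AGATAA on the opposite strand, and capitals rich in G are matches to CCNCNCCC on the opposite strand.
Alas2: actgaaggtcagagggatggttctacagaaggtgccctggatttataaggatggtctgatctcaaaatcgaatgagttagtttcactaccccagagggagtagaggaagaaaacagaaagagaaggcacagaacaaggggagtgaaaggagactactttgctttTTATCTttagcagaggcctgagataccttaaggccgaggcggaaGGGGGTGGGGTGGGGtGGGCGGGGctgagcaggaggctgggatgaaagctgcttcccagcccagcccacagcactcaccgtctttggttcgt
Trim10: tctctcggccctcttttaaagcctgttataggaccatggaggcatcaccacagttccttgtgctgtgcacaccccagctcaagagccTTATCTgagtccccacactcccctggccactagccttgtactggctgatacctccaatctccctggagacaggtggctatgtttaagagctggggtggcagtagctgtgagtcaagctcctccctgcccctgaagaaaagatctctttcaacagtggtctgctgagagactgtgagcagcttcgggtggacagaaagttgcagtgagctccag
Cpox: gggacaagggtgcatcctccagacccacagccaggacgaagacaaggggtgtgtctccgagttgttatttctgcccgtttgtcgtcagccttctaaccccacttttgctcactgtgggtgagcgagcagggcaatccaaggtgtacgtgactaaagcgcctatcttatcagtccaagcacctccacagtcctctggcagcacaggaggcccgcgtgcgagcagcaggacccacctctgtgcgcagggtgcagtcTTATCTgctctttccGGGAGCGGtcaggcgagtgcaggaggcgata
Epor: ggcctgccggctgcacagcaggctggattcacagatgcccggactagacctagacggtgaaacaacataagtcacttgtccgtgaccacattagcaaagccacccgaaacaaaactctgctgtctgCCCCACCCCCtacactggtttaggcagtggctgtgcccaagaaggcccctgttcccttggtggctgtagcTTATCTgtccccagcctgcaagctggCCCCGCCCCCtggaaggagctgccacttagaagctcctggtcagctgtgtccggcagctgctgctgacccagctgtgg
Alas2 has TTATCT from position -86 relative to the start and 4 overlapping or adjacent CACC matches from position -42 on. Epor has TTATCT at position -54 with CACC matches on both sides of it, from positions -124 and -28, and Cpox has both motifs after the start, at positions 5 and 20. Trim10 has TTATCT at position -163 and no CACC match in this window. A match describes the letters alone, and binding was not measured.

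Most members were lower in arthritic than in control ankles, and more of them passed the test in Mmp8+/+ than in Mmp8-/- mice. Averaged over the genotypes, 22 of 32 members fell with arthritis and 2 rose, with 8 not passing, and the median log2 fold change was -0.54. Over all features tested, 23.2% fell and 19.8% rose, and the median was close to 0 (-0.0016). In Mmp8-/- mice 4 members fell (Alas2, Urod, Ppox and Bpgm) and 0 rose, with a median of -0.33, where 14.3% of all features fell and 8.3% rose. In Mmp8+/+ mice 14 members fell and 0 rose, with a median of -0.78, where 12.1% of all features fell and 7.47% rose. The 4 of 32 in Mmp8-/- mice is a share close to that of all features. Alas2 and Bpgm fell in both genotypes, Urod and Ppox passed in Mmp8-/- mice and 12 members in Mmp8+/+ mice, and the genotypes themselves are compared further on.

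Taken array by array, in Mmp8+/+ mice 23 of 32 members were lower in each arthritic mouse than in each control mouse, where 22.4% of all features were. In Mmp8-/- mice 7 members were (Alas2, Urod, Ppox, Slc25a37, Slc25a38, Sptb and Bpgm), a share close to the 21.5% of all features that were. This order held in both genotypes for 6 members, and for 14.6% of all features. Trim58 was the 1 member higher in each arthritic than in each control Mmp8-/- mouse, where 18.4% of all features were.

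**Figure D1:**
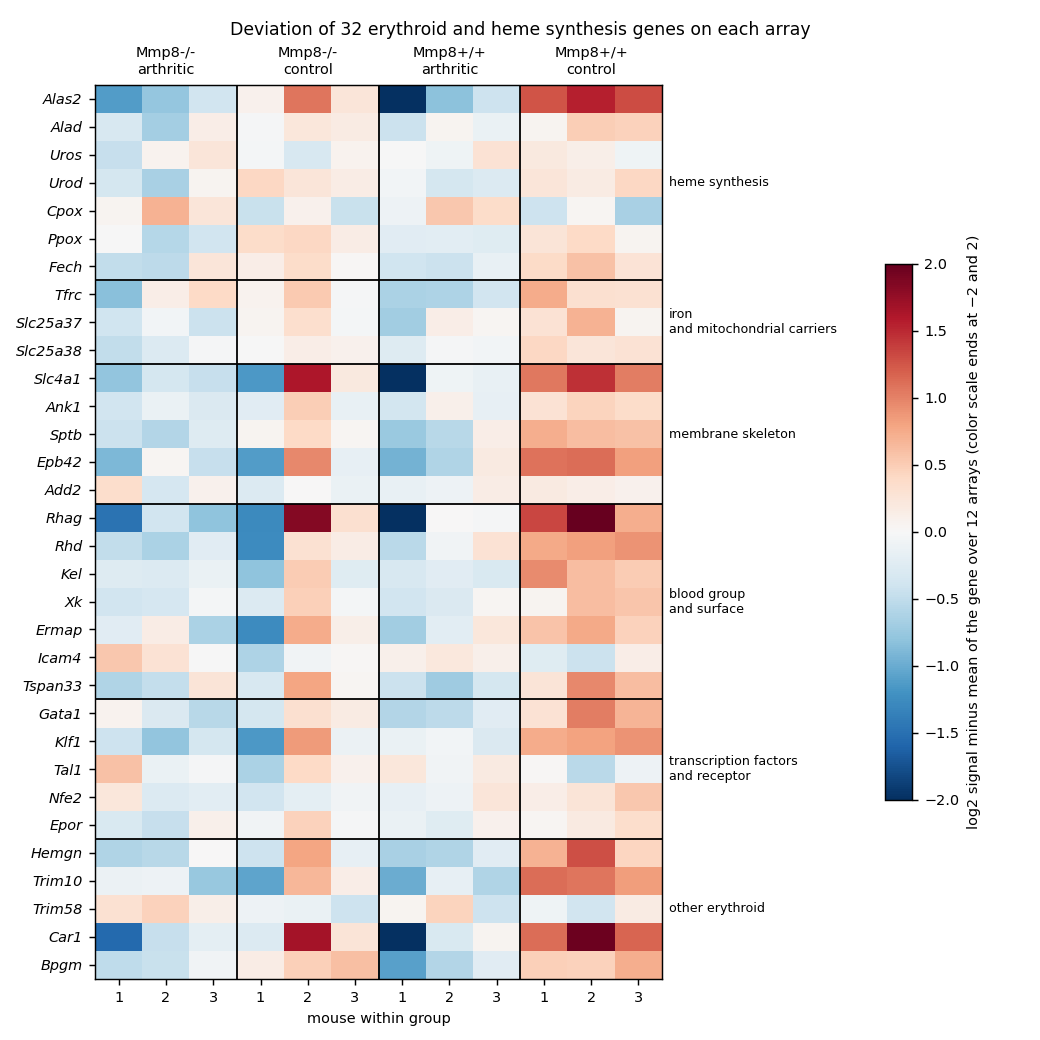
Log2 signal of each of the 32 members (rows, by role) on each of the 12 arrays (columns, mice 1 to 3 of each group), as the difference from the gene's mean over the arrays, with blue below and red above it. The color scale ends at -2 and 2, and values beyond are drawn at its ends. Mmp8+/+ control mice are red for most rows, Mmp8-/- control mouse 1 and Mmp8+/+ arthritic mouse 1 are the bluest for many, and Cpox, Icam4, Tal1 and Trim58 average higher in arthritic mice.

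Whether the 4 falls in Mmp8-/- mice passed depended on single arrays, among them the one with Mmp8 signal, and their sign did not. With all arrays the effects were -1.22 for Alas2, -0.59 for Urod, -0.63 for Ppox and -0.76 for Bpgm. Without Mmp8-/- control mouse 2, 0 of the 4 passed, with log2 fold changes of -0.92 for Alas2, -0.60 for Urod, -0.57 for Ppox and -0.72 for Bpgm and adjusted p-values in limma of 0.0912, 0.0725, 0.0642 and 0.0657. Without Mmp8-/- control mouse 1, an Xist array, Urod (adjusted p = 0.126) and Ppox (adjusted p = 0.0658) did not pass, and Klf1 did. Without arthritic Mmp8-/- mouse 1 or mouse 2, 1 member passed. Over all members, 25 of 32 were lower in arthritic than in control Mmp8-/- mice, 20 without control mouse 2 (median -0.10) and 26 without control mouse 1 (median -0.50). The sign of the Mmp8-/- effect turned for 7 members without control mouse 2 (Uros, Epb42, Rhd, Kel, Ermap, Klf1 and Trim10). In Mmp8+/+ mice the 14 falls became 8 without arthritic mouse 1 and 8 without control mouse 2. Fech, Slc4a1, Epb42, Rhag and Car1 passed in neither case, Tfrc did not pass without that arthritic mouse, and Tspan33 did not pass without that control mouse. With both Xist arrays and the array with Mmp8 signal left out together, 1 Mmp8-/- control mouse remained. The median effect in Mmp8-/- mice was then -0.29, with 26 of 32 members lower. The share of all features that passed with arrays left out was not counted. A change in the number of falls is therefore not a result about the members alone.

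**Figure D2:**
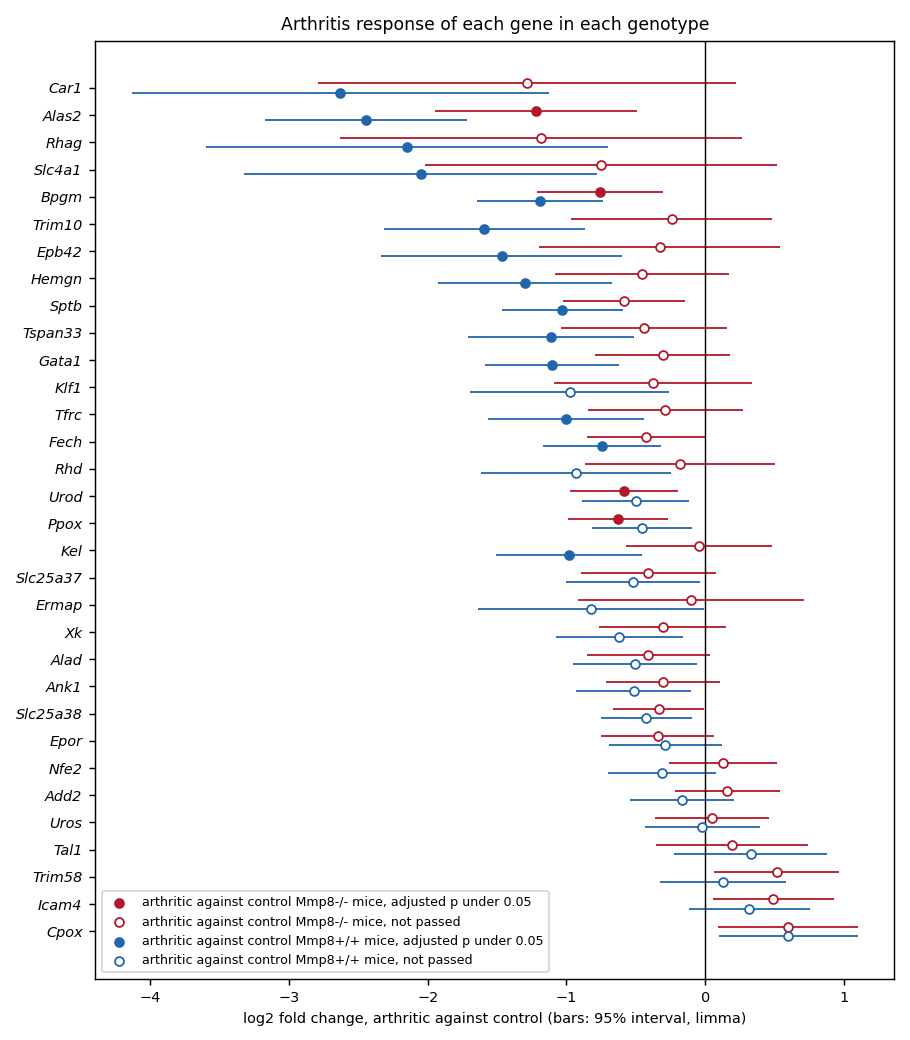
Effect of arthritis, as the log2 fold change over control mice, for each member in Mmp8-/- mice (red, upper of each pair) and Mmp8+/+ mice (blue), with 95% intervals from limma. Filled points passed an adjusted p of 0.05, 4 in Mmp8-/- and 14 in Mmp8+/+ mice. Genes are ordered by the average over genotypes, from Car1 at -1.96 to Cpox at 0.60.

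Among the heme synthesis genes, 5 of 7 fell with arthritis in the average over genotypes, and Cpox rose. Alas2 encodes the erythroid form of the first and rate-limiting enzyme of the pathway. Its signal was 7.52, 7.85 and 8.25 in arthritic Mmp8-/- mice, against 8.71, 9.70 and 8.87 in Mmp8-/- controls. It was 6.64, 7.82 and 8.21 in arthritic Mmp8+/+ mice, against 9.89, 10.18 and 9.94 in Mmp8+/+ controls. Neither genotype's groups overlapped, and arthritic Mmp8+/+ mouse 1 was the lowest of all 12. Alas2 was 2.33-fold lower in arthritic than in control Mmp8-/- mice (log2 fold change -1.22, SE 0.34, adjusted p = 0.0213 in limma). It was 5.45-fold lower in Mmp8+/+ mice (-2.45, SE 0.34, adjusted p = 0.000208). The fall in Mmp8+/+ mice and that in the average passed under all settings of the analysis that were run, and the one in Mmp8-/- mice under 17 of 23.

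Fech encodes ferrochelatase, the last enzyme of the pathway, which inserts iron into protoporphyrin. Its signal was 7.05, 7.01 and 7.77 in arthritic Mmp8-/- mice, against 7.66, 7.90 and 7.56 in Mmp8-/- controls. In Mmp8+/+ mice it was 7.13, 7.10 and 7.38 with arthritis, against 7.91, 8.12 and 7.81 in controls. Arthritic Mmp8-/- mouse 3 lay within the range of its controls, while the Mmp8+/+ groups did not overlap. Fech fell in Mmp8+/+ mice (-0.74, SE 0.20, adjusted p = 0.0176) and did not pass in Mmp8-/- mice (-0.43, 95% interval -0.85 to -0.0023, adjusted p = 0.128, limma). Between these ends of the pathway, Alad, which makes porphobilinogen, Urod, which decarboxylates uroporphyrinogen, and Ppox, which makes protoporphyrin, fell in the average by 1.37-, 1.46- and 1.46-fold. Urod and Ppox were lower in each arthritic than in each control mouse of both genotypes. Their effects in Mmp8-/- mice were -0.59 (SE 0.18, adjusted p = 0.0326) and -0.63 (SE 0.17, adjusted p = 0.0173).

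Cpox and Uros departed from this. Cpox, coproporphyrinogen oxidase, had a signal of 8.30, 8.93 and 8.47 in arthritic Mmp8-/- mice, against 7.79, 8.33 and 7.79 in Mmp8-/- controls. In arthritic Mmp8+/+ mice it was 8.13, 8.77 and 8.60, against 7.83, 8.28 and 7.59 in Mmp8+/+ controls. In each genotype control mouse 2 reached into the arthritic range. Cpox rose by 1.51-fold in the average over genotypes (0.60, SE 0.17, adjusted p = 0.0107 in limma), with the same size in Mmp8-/- (0.60) and in Mmp8+/+ mice (0.60), where neither passed alone. The rise did not pass without both Xist arrays. Uros, uroporphyrinogen synthase, read 6.64, 7.17 and 7.35 in arthritic Mmp8-/- mice, against 7.06, 6.79 and 7.16 in Mmp8-/- controls. It read 7.09, 7.01 and 7.39 in arthritic Mmp8+/+ mice, against 7.30, 7.22 and 7.02 in Mmp8+/+ controls. All of its groups overlapped, and its average effect was 0.01 (95% interval -0.28 to 0.31).

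**Figure D3:**
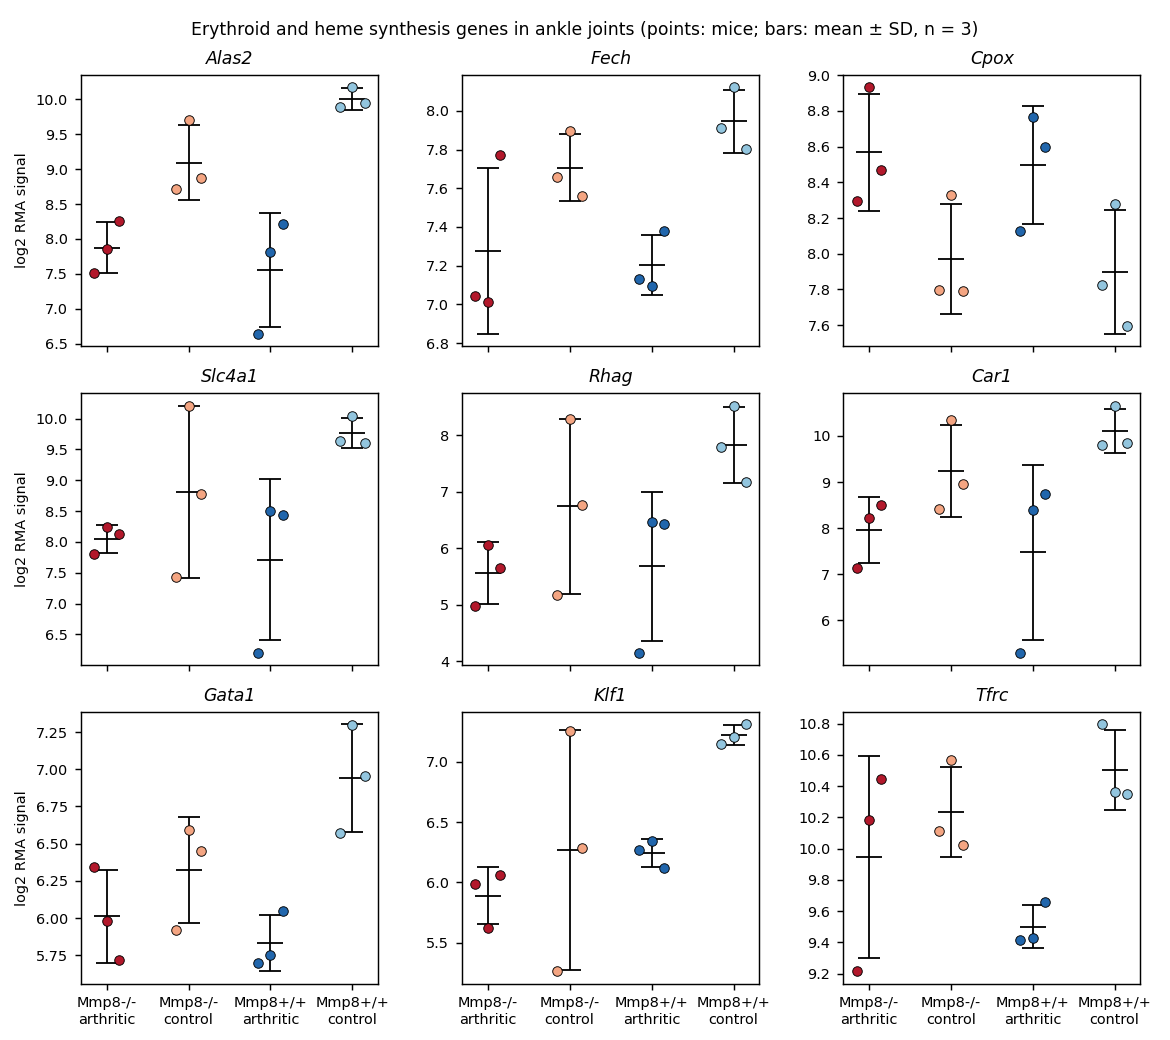
Log2 signal of 9 members in each mouse (points) of arthritic and control Mmp8-/- mice and arthritic and control Mmp8+/+ mice, with the mean and SD of 3 mice (bars) and a separate vertical scale, not starting at 0, for each gene. Mmp8-/- control mice are spread widely for Slc4a1, Rhag and Klf1, with mouse 2 highest and mouse 1 lowest. Alas2 in control mice lay above arthritic mice in both genotypes, and the Cpox means were higher in arthritic than in control mice.

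All 3 transport genes fell in the average over genotypes. Tfrc encodes the transferrin receptor, through which erythroid cells take up iron, and which other dividing cells carry too. It read 9.21, 10.18 and 10.44 in arthritic Mmp8-/- mice, against 10.11, 10.56 and 10.03 in Mmp8-/- controls. In arthritic Mmp8+/+ mice the values were 9.42, 9.43 and 9.66, against 10.80, 10.36 and 10.35 in Mmp8+/+ controls. The Mmp8-/- groups overlapped and the Mmp8+/+ groups did not. Tfrc was 2-fold lower in arthritic Mmp8+/+ mice (-1.0, SE 0.26, adjusted p = 0.0155 in limma). In Mmp8-/- mice its effect was -0.29 (95% interval -0.85 to 0.27), and -0.12 without control mouse 2. It turned to 0.08 without arthritic mouse 1 and was -0.54 without arthritic mouse 3.

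Slc25a37, mitoferrin, carries iron into mitochondria. Its signal was 7.54, 7.89 and 7.51 in arthritic Mmp8-/- mice, against 7.99, 8.28 and 7.89 in Mmp8-/- controls. It was 7.25, 8.07 and 7.98 in arthritic Mmp8+/+ mice, against 8.23, 8.63 and 8.00 in Mmp8+/+ controls. Arthritic mouse 2 lay just below control mouse 3 in Mmp8-/- mice and above control mouse 3 in Mmp8+/+ mice. Slc25a38, the mitochondrial glycine carrier that feeds the first step of heme synthesis, read 7.83, 8.04 and 8.29 in arthritic Mmp8-/- mice, against 8.30, 8.45 and 8.40 in Mmp8-/- controls. In arthritic Mmp8+/+ mice it read 8.06, 8.29 and 8.26, against 8.73, 8.56 and 8.60 in Mmp8+/+ controls. Slc25a38 had the smallest spread of all members between mice of a group, with a residual SD of 0.144, and the groups of both genotypes stood apart. The average effects were -0.46 for Slc25a37 (adjusted p = 0.0304) and -0.38 for Slc25a38 (adjusted p = 0.0123, limma), and neither gene passed within a genotype.

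In the membrane skeleton, 4 of 5 genes fell in the average, 3 of them in Mmp8+/+ mice and 0 in Mmp8-/- mice. Slc4a1 encodes the anion exchanger of the red cell membrane, which anchors the skeleton. Its signal was 7.80, 8.24 and 8.13 in arthritic Mmp8-/- mice, against 7.43, 10.21 and 8.78 in Mmp8-/- controls. In arthritic Mmp8+/+ mice it was 6.21, 8.50 and 8.43, against 9.63, 10.05 and 9.61 in Mmp8+/+ controls. Mmp8-/- control mouse 1 lay below all 3 arthritic mice of its genotype and Mmp8-/- control mouse 2 was the highest of 12. Slc4a1 was 4.14-fold lower in arthritic Mmp8+/+ mice (-2.05, SE 0.60, adjusted p = 0.0259 in limma), and this did not pass without arthritic mouse 1 (-1.30, adjusted p = 0.122) or without control mouse 2 (-1.91, adjusted p = 0.0814). In Mmp8-/- mice the effect was -0.75 (95% interval -2.02 to 0.52), -0.05 without control mouse 2 and -1.44 without control mouse 1.

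Epb42, a protein that ties the anion exchanger to ankyrin, read 5.65, 6.58 and 6.08 in arthritic Mmp8-/- mice, against 5.42, 7.50 and 6.37 in Mmp8-/- controls. It read 5.60, 5.93 and 6.71 in arthritic Mmp8+/+ mice, against 7.63, 7.66 and 7.36 in Mmp8+/+ controls. Here Mmp8-/- control mouse 1 was the lowest of all 12 arrays, and the Mmp8+/+ groups did not overlap. Epb42 fell in Mmp8+/+ mice (-1.47, SE 0.41, adjusted p = 0.0207 in limma). Its effect in Mmp8-/- mice was -0.33 (95% interval -1.20 to 0.54), 0.21 without control mouse 2 and -0.83 without control mouse 1. Sptb, beta spectrin, also fell in Mmp8+/+ mice (-1.03, SE 0.21, adjusted p = 0.00301 in limma) and passed there under all settings. In Mmp8-/- mice it came close to the threshold (-0.59, adjusted p = 0.0523).

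Ank1, the ankyrin of red cells, had a signal of 6.74, 6.99 and 6.82 in arthritic Mmp8-/- mice, against 6.89, 7.61 and 6.96 in Mmp8-/- controls. In arthritic Mmp8+/+ mice it was 6.75, 7.22 and 6.95, against 7.41, 7.57 and 7.49 in Mmp8+/+ controls. It fell in the average over genotypes (-0.41, adjusted p = 0.0259 in limma) and in neither genotype alone. Add2, beta adducin, which caps the actin filaments of the skeleton and is also a neuronal gene, read 6.72, 6.03 and 6.45 in arthritic Mmp8-/- mice, against 6.10, 6.38 and 6.24 in Mmp8-/- controls. Its values were 6.22, 6.27 and 6.51 in arthritic Mmp8+/+ mice, against 6.56, 6.50 and 6.45 in Mmp8+/+ controls. Add2 lay within a range of 0.69 over all 12 arrays, and the 95% interval of its average effect was -0.27 to 0.26.

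Of the 7 blood group and surface genes, 4 fell in the average over genotypes and Icam4 rose. Rhag encodes the glycoprotein that carries the Rh antigens to the surface. Its signal was 4.97, 6.06 and 5.64 in arthritic Mmp8-/- mice, against 5.17, 8.28 and 6.76 in Mmp8-/- controls. It was 4.15, 6.46 and 6.42 in arthritic Mmp8+/+ mice, against 7.78, 8.52 and 7.17 in Mmp8+/+ controls. The range over 12 arrays was 4.37, from arthritic Mmp8+/+ mouse 1 to Mmp8+/+ control mouse 2, and the Mmp8-/- groups overlapped. Rhag was 4.44-fold lower in arthritic Mmp8+/+ mice (-2.15, SE 0.68, adjusted p = 0.0378 in limma), -1.39 with an adjusted p of 0.176 without arthritic mouse 1 and -1.80 with an adjusted p of 0.134 without control mouse 2. Its effect in Mmp8-/- mice was -1.18 (95% interval -2.63 to 0.27), -0.41 without control mouse 2 and -1.96 without control mouse 1.

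Tspan33, a tetraspanin of erythroid progenitors, read 6.06, 6.19 and 6.92 in arthritic Mmp8-/- mice, against 6.34, 7.45 and 6.70 in Mmp8-/- controls. It read 6.23, 5.95 and 6.31 in arthritic Mmp8+/+ mice, against 6.92, 7.62 and 7.28 in Mmp8+/+ controls. It fell in Mmp8+/+ mice, where the groups did not overlap (-1.11, SE 0.28, adjusted p = 0.0124 in limma). Kel, the protein of the Kell blood group, also fell in Mmp8+/+ mice (-0.98, SE 0.25, adjusted p = 0.0124), and its effect in Mmp8-/- mice was -0.05 (95% interval -0.57 to 0.48), 0.30 without control mouse 2 and -0.36 without control mouse 1. Rhd, an Rh antigen, came close to the threshold in Mmp8+/+ mice (-0.93, adjusted p = 0.0544), and Ermap, the Scianna antigen, did not pass in any comparison (-0.46 in the average, 95% interval -1.04 to 0.11). For Rhd, Kel and Ermap, Mmp8-/- control mouse 1 was the lowest of all 12 arrays.

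Xk, which forms a complex with the Kell protein, had signals of 6.07, 6.12 and 6.42 in arthritic Mmp8-/- mice, against 6.18, 6.93 and 6.41 in Mmp8-/- controls. The signals were 6.07, 6.17 and 6.49 in arthritic Mmp8+/+ mice, against 6.50, 7.07 and 7.00 in Mmp8+/+ controls. Its average fall was 1.38-fold (-0.46, adjusted p = 0.024 in limma). Icam4, an adhesion molecule of erythroblasts that carries the Landsteiner-Wiener antigen, read 6.84, 6.59 and 6.29 in arthritic Mmp8-/- mice, against 5.68, 6.24 and 6.32 in Mmp8-/- controls. It read 6.41, 6.52 and 6.40 in arthritic Mmp8+/+ mice, against 6.07, 5.87 and 6.43 in Mmp8+/+ controls. The groups overlapped in both genotypes. Icam4 rose 1.32-fold in the average (0.40, SE 0.14, adjusted p = 0.0348) and passed under 10 of 22 settings.

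Among the regulators, Gata1 and Klf1 fell in the average over genotypes and Tal1, Nfe2 and Epor did not pass. Gata1, the transcription factor at the centre of the erythroid program, read 6.34, 5.98 and 5.72 in arthritic Mmp8-/- mice, against 5.92, 6.59 and 6.45 in Mmp8-/- controls. It read 5.70, 5.75 and 6.05 in arthritic Mmp8+/+ mice, against 6.57, 7.29 and 6.95 in Mmp8+/+ controls. The Mmp8+/+ groups stood apart, and the Mmp8-/- groups overlapped. Gata1, which megakaryocytes and mast cells also use, was 2.15-fold lower in arthritic Mmp8+/+ mice (-1.11, SE 0.23, adjusted p = 0.00358 in limma), under all settings run. Its effect in Mmp8-/- mice was -0.31 (95% interval -0.79 to 0.18, adjusted p = 0.327), -0.17 without control mouse 2 and -0.51 without control mouse 1.

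Klf1, the erythroid Krüppel-like factor, read 5.99, 5.62 and 6.06 in arthritic Mmp8-/- mice, against 5.26, 7.26 and 6.28 in Mmp8-/- controls. Klf1 read 6.27, 6.35 and 6.12 in arthritic Mmp8+/+ mice, against 7.15, 7.21 and 7.31 in Mmp8+/+ controls. The Mmp8+/+ groups lay about 1 log2 unit apart without overlap, whereas Mmp8-/- controls reached from below the arthritic range into the control range of Mmp8+/+ mice. Klf1 fell in the average (-0.68, SE 0.24, adjusted p = 0.0325 in limma). In Mmp8+/+ mice alone it was at -0.98 (adjusted p = 0.0534). In Mmp8-/- mice the effect was -0.38, with -1.09 to 0.34 as its 95% interval, and turned to 0.12 without control mouse 2 and to -0.88 (adjusted p = 0.0349) without control mouse 1.

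Tal1, a partner of Gata1 also used by stem cells, megakaryocytes and endothelium, read 8.28, 7.55 and 7.66 in arthritic Mmp8-/- mice, against 7.05, 8.10 and 7.77 in Mmp8-/- controls. Its signal was 7.92, 7.63 and 7.87 in arthritic Mmp8+/+ mice, against 7.71, 7.14 and 7.58 in Mmp8+/+ controls. The average effect had the opposite sign to that of Gata1 (0.26, 95% interval -0.13 to 0.65) and did not pass. Nfe2, a factor of erythroid and megakaryocytic genes, read 7.92, 7.42 and 7.48 in arthritic Mmp8-/- mice, against 7.32, 7.50 and 7.62 in Mmp8-/- controls. It read 7.53, 7.60 and 7.94 in arthritic Mmp8+/+ mice, against 7.82, 7.95 and 8.23 in Mmp8+/+ controls. Epor, the erythropoietin receptor, read 6.82, 6.67 and 7.22 in arthritic Mmp8-/- mice, against 7.05, 7.59 and 7.10 in Mmp8-/- controls. It was at 6.98, 6.89 and 7.21 in arthritic Mmp8+/+ mice, against 7.16, 7.31 and 7.47 in Mmp8+/+ controls. Both genes overlapped between groups in each genotype, and the average effect of Epor was -0.31 (95% interval -0.60 to -0.03, adjusted p = 0.0709 in limma).

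Of the 5 other erythroid genes, all but Trim58 fell in the average. Car1, a carbonic anhydrase made in late erythroid cells, read 7.15, 8.23 and 8.50 in arthritic Mmp8-/- mice, against 8.42, 10.36 and 8.95 in Mmp8-/- controls. It read 5.3, 8.39 and 8.75 in arthritic Mmp8+/+ mice, against 9.81, 10.66 and 9.86 in Mmp8+/+ controls. Its range of 5.36 log2 units over the 12 arrays was the widest of the members, and arthritic Mmp8+/+ mouse 1 lay more than 1 unit below every other array. Car1 was 6.19-fold lower in arthritic Mmp8+/+ mice (-2.63, SE 0.71, adjusted p = 0.0173 in limma), and without arthritic mouse 1 the effect was -1.54 (adjusted p = 0.0542), without control mouse 2 -2.35 (adjusted p = 0.0668). The effect of Car1 in Mmp8-/- mice was -1.29 (95% interval -2.79 to 0.22), -0.73 without control mouse 2 and -1.70 without control mouse 1.

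Bpgm makes bisphosphoglycerate, which lowers the oxygen affinity of hemoglobin. It read 7.77, 7.84 and 8.22 in arthritic Mmp8-/- mice, against 8.44, 8.77 and 8.89 in Mmp8-/- controls. Its signal was 7.20, 7.70 and 8.07 in arthritic Mmp8+/+ mice, against 8.77, 8.75 and 9.02 in Mmp8+/+ controls. No arthritic value reached a control value in either genotype. Bpgm was 1.69-fold lower in arthritic Mmp8-/- mice (-0.76, SE 0.21, adjusted p = 0.0219) and 2.28-fold lower in arthritic Mmp8+/+ mice (-1.19, SE 0.21, adjusted p = 0.00142, limma).

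Hemgn, a nuclear protein of blood progenitors, read 5.56, 5.61 and 6.18 in arthritic Mmp8-/- mice, against 5.75, 6.96 and 6.01 in Mmp8-/- controls. It read 5.52, 5.56 and 5.94 in arthritic Mmp8+/+ mice, against 6.86, 7.46 and 6.59 in Mmp8+/+ controls. Hemgn fell in Mmp8+/+ mice (-1.30, SE 0.29, adjusted p = 0.00664 in limma), as did Trim10, a tripartite motif protein of terminal erythroid differentiation (-1.59, SE 0.34, adjusted p = 0.00463). The effects in Mmp8-/- mice were -0.46 for Hemgn (95% interval -1.08 to 0.17) and -0.24 for Trim10 (95% interval -0.97 to 0.48). Without control mouse 2 they were -0.10 for Hemgn and 0.13 for Trim10, and without control mouse 1 they were -0.70 for Hemgn and -0.72 for Trim10. Trim58, a ubiquitin ligase that acts at enucleation, read 5.98, 6.14 and 5.80 in arthritic Mmp8-/- mice, against 5.57, 5.55 and 5.26 in Mmp8-/- controls. Its values were 5.73, 6.12 and 5.26 in arthritic Mmp8+/+ mice, against 5.59, 5.29 and 5.85 in Mmp8+/+ controls. It did not pass in Mmp8-/- mice, where no values overlapped (0.51, adjusted p = 0.0899 in limma), nor in Mmp8+/+ mice (0.13, adjusted p = 0.7). Trim58 averaged 5.68 over the 12 arrays, close to the filter of 5.3, so its expression is uncertain.

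The members differed widely between mice of the same group. The mean log2 signal over the 32 members was 6.95, 7.04 and 7.17 in arthritic Mmp8-/- mice, against 6.93, 7.83 and 7.35 in Mmp8-/- controls. It was 6.67, 7.11 and 7.25 in arthritic Mmp8+/+ mice, against 7.79, 7.94 and 7.78 in Mmp8+/+ controls. Mmp8-/- controls were thus the most variable group (SD 0.45, n = 3) and Mmp8+/+ controls the least (SD 0.09, n = 3), and Mmp8-/- control mouse 1, an array with Xist signal, was at the level of arthritic mice. That mouse was the lowest of the 6 controls for 23 of 32 members, and for 15.1% of all features tested. Arthritic Mmp8+/+ mouse 1 was the lowest of the 6 arthritic mice for 15 members, and for 11.9% of all features. Mmp8-/- control mouse 2, the array with Mmp8 signal, was the highest of its group for 26 members, and the share of all features for this was not counted. Among all 6 controls it was the highest for 6 members, and for 14.8% of all features. The other Xist array, Mmp8+/+ control mouse 1, was the lowest control for 0 members.

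The median residual SD of the members was 0.313, against 0.232 for all features tested, and 12 of the 32 members were in the tenth of features with the largest residual SD. Car1 (1.15), Rhag (1.11) and Slc4a1 (0.968) had the largest residual SD of the members, and Slc4a1 exceeded 99.9% of all features. Nfe2 (0.218), Urod (0.215), Add2 (0.206), Ppox (0.184) and Slc25a38 (0.144) lay below the median of all features.

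Members moved together from mouse to mouse to different degrees. With the group means subtracted, Pearson's r with the mean of the other 31 members over the 12 arrays was 0.956 for Slc4a1, 0.929 for Rhag, 0.881 for Alas2 and for Epb42, and 0.861 for Rhd. It was 0.654 for Cpox, one of the 5 members with a positive average arthritis effect. It was 0.024 for Ppox, -0.28 for Urod and -0.25 for Trim58. These correlations describe 12 arrays, each of which gives all members from 1 RNA extract. The member mean varied most in Mmp8-/- controls (SD 0.45). Its lowest and highest mice there were 1 and 2, the arrays that went against their labels. The correlations were not run without these arrays.

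No member differed between the genotypes at an adjusted p of 0.05. Between arthritic Mmp8-/- and arthritic Mmp8+/+ mice, 0 of 32 members passed, where 0.00573% of all features did (1 feature), and 0 members had an unadjusted p below 0.05 in limma, against 504 of all features. The median log2 difference of the members was 0.02, and Alas2 differed by 0.32 (95% interval -0.41 to 1.05), Klf1 by -0.35 (-1.07 to 0.36) and Tfrc by 0.45 (-0.11 to 1.01). The 3 Mmp8-/- arthritic and 3 Mmp8+/+ arthritic values overlapped for these genes except for Klf1, where the Mmp8-/- values were the lower.

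Between control mice 0 members passed as well, where 0% of all features did. Here 29 of 32 members were lower in Mmp8-/- than in Mmp8+/+ controls, with a median of -0.34, and 10 members had an unadjusted p below 0.05, as did 567 of the 17450 features. The largest differences were those of Epb42 (-1.12, 95% interval -1.99 to -0.25), Rhd (-1.10, -1.78 to -0.41), Trim10 (-1.09, -1.82 to -0.37) and Rhag (-1.09, -2.54 to 0.36). In each of these genes Mmp8-/- control mouse 2, the one with Mmp8 signal, lay closer to the Mmp8+/+ controls than mice 1 and 3 did. Without Mmp8-/- control mouse 1 the differences were -0.62 for Epb42, -0.60 for Rhd, -0.61 for Trim10 and -0.30 for Rhag, and without Mmp8-/- control mouse 2 they were -1.66, -1.39, -1.47 and -1.86 in the same order. The median over members was -0.21 without mouse 1 and -0.55 without mouse 2.

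The arthritis effect was compared between genotypes as an interaction, Mmp8-/- minus Mmp8+/+, which for a fall is positive where the fall was smaller in Mmp8-/- mice. It passed for 0 members, where 0% of all features passed. The interaction was positive for 27 of 32 members, with a median of 0.44, against -0.01 over all features. Unadjusted, 4 members had p below 0.05, as did 555 features, and these were Trim10 (1.35, 95% interval 0.32 to 2.38), Alas2 (1.23, 0.19 to 2.26), Kel (0.93, 0.19 to 1.68) and Gata1 (0.80, 0.12 to 1.48). The higher number of falls in Mmp8+/+ mice is therefore not shown to be a difference between genotypes. The genotype and interaction values share their mice with the effects within genotype, and 0 members passed in them also without the array with Mmp8 signal and without the Xist arrays.

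Further genes of red cells were taken from a list of 40, of which 32 were tested. In the average over genotypes 18 fell and 4 rose, with a median of -0.43, where 23.2% of all features fell and 19.8% rose. In Mmp8-/- mice 12 fell and 2 rose, where 14.3% of all features fell and 8.3% rose. In Mmp8+/+ mice 14 fell and 2 rose, where 12.1% of all features fell and 7.47% rose. The largest effects were those of Mrap (-2.17, SE 0.26, adjusted p = 1.91e-05 in limma) and Cd36 (-2.10, SE 0.23, adjusted p = 6.58e-06), which adipocytes also express, and of Tmod1 (-1.89, SE 0.27, adjusted p = 0.000101), a capping protein of actin that muscle also expresses. Tent5c, a poly(A) polymerase of erythroblasts and plasma cells, was at -1.56 (SE 0.21, adjusted p = 6.86e-05). The mean of this list was 7.69, 7.70 and 7.83 in arthritic Mmp8-/- mice, against 8.02, 8.38 and 8.25 in Mmp8-/- controls, and 7.64, 7.81 and 7.87 in arthritic Mmp8+/+ mice, against 8.30, 8.43 and 8.33 in Mmp8+/+ controls.

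Genes of other marrow cells moved beside the erythroid ones, where 23.2% of all features fell and 19.8% rose in the average over genotypes. Within genotype, 14.3% of all features fell and 8.3% rose in Mmp8-/- mice, and 12.1% fell and 7.47% rose in Mmp8+/+ mice. B lineage genes fell for 15 of 17 in the average (median -1.37), led by Ms4a1 (-2.79) and Cd79a (-2.44), with 15 falls in Mmp8-/- and 14 in Mmp8+/+ mice. Megakaryocyte and platelet genes fell for 13 of 15 (median -0.94), with 9 falls in Mmp8-/- and 12 in Mmp8+/+ mice, led by Clec1b (-2.12), a platelet lectin receptor. Granulocyte precursor genes fell for 10 of 17 and rose for 1 (median -0.70), with 0 calls in Mmp8-/- and 9 falls in Mmp8+/+ mice. Stem and progenitor genes fell for 8 of 14 and rose for 1 (median -0.42), led by Kit (-1.37). Mitosis and replication genes ran the other way, with 14 of 31 higher and 0 lower in the average (median 0.30). Tested within genotype, 13 were higher in Mmp8-/- and 1 in Mmp8+/+ mice. The interaction passed for 0 genes of each of these lists. The counts are therefore not shown to differ between genotypes.

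On single arrays these lists shared some of the erythroid extremes. The megakaryocyte and platelet mean was 7.74, 7.87 and 7.74 in arthritic Mmp8-/- mice, against 8.22, 8.89 and 8.83 in Mmp8-/- controls, and 7.40, 7.82 and 8.03 in arthritic Mmp8+/+ mice, against 8.94, 9.16 and 8.89 in Mmp8+/+ controls. The granulocyte precursor mean was 9.40, 9.21 and 8.90 in arthritic Mmp8-/- mice, against 8.90, 9.48 and 9.88 in Mmp8-/- controls, and 8.65, 9.10 and 9.48 in arthritic Mmp8+/+ mice, against 9.79, 9.82 and 9.93 in Mmp8+/+ controls. In both lists Mmp8-/- control mouse 1 was the lowest control and arthritic Mmp8+/+ mouse 1 the lowest of 12, as for the erythroid mean. For B lineage genes Mmp8-/- control mouse 1 (8.04) lay within the other controls (7.94 to 8.40).

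**Figure D4:**
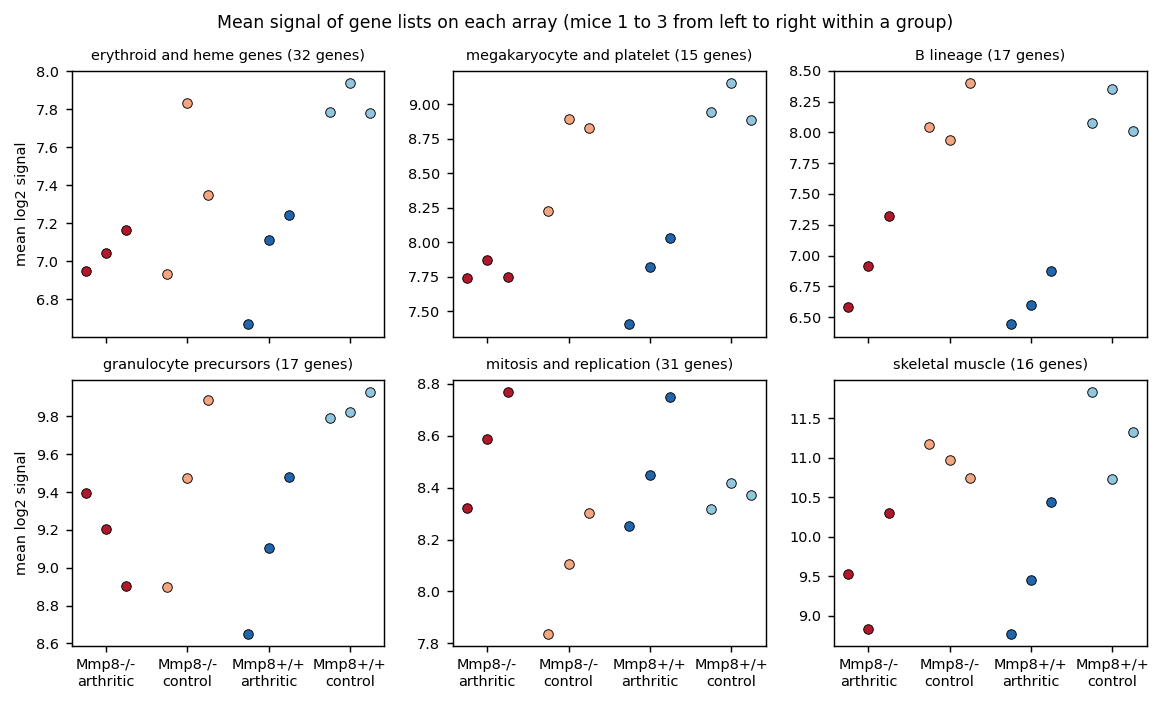
Mean log2 signal on each array (points) of the 32 erythroid and heme genes and of 5 lists of other cells or functions, with mice 1 to 3 from left to right in each group and a separate vertical scale, not starting at 0, for each list. Mmp8-/- control mouse 1 lies below the other controls for erythroid, platelet, granulocyte precursor and mitosis genes and not for B lineage or muscle genes.

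Tissues other than marrow also changed in the average over genotypes, where 23.2% of all features fell and 19.8% rose. Skeletal muscle genes fell for 15 of 16 (median -1.61), adipocyte genes for 12 of 12 (median -2.01), and bone genes for 6 of 11, with 2 higher (median -0.93). Epidermis genes fell for 3 of 13, a share like that of all features, with medians of -0.80 in Mmp8-/- and 0.35 in Mmp8+/+ mice. The interaction passed for 0 of these 13 genes. Muscle means ranged over 8.83 to 10.30 in arthritic and 10.75 to 11.17 in control Mmp8-/- mice, and over 8.77 to 10.44 in arthritic and 10.73 to 11.83 in control Mmp8+/+ mice, with arthritic Mmp8+/+ mouse 1 again the lowest. The part of tissue composition in the erythroid falls was not tested.

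The genes outside the members that followed the member mean most closely over the 12 arrays were Car2, Rab27b, Tuba4a, Tent5c, Mtus1, Atp8a1, Tubb1, Gp9, Wdr76 and 4930438A08Rik, with Pearson's r of 0.983 to 0.909. Group means were not subtracted here, so these r values include the differences between groups. They are not on the same footing as those given for the members. Car2, a carbonic anhydrase of red cells and osteoclasts, read 7.95, 8.53 and 8.79 in arthritic Mmp8-/- mice, against 8.16, 9.88 and 9.15 in Mmp8-/- controls. It read 7.16, 8.60 and 8.85 in arthritic Mmp8+/+ mice, against 10.04, 10.19 and 9.92 in Mmp8+/+ controls. Its highest and lowest arrays were those of Alas2. Tubb1, Gp9 and Rab27b are on the megakaryocyte and platelet list.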

How the data were processed

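Total RNA of ankle joints from 12 mice was hybridised to Affymetrix Mouse Gene 1.0 ST arrays, 1 per mouse. The authors deposited log2 values made by RMA, with RMA and Partek named in the submitters' processing notes and no version given there; RMA sets all arrays to the same distribution of probe intensities, so a gene's level is relative to the other RNA of the joint. Of 28853 features, 21789 carried 1 gene symbol in the platform annotation, 1621 several and 5443 none, and 0 columns of array values were left out. A gene was taken at its feature with 1 symbol alone and the highest mean. Features with 1 symbol and a mean of at least 5.3 were tested (17450). Group means of all 12 arrays were fitted with limma 3.58.1 in R 4.3.3, two-sided, with 8 residual degrees of freedom, moderated variances and Benjamini-Hochberg adjustment over 17450 features at 0.05, and intervals are 95%. The code was checked on simulated data. The labels give no shared extraction or scan for the arrays. The number of arrays limits the precision, and mice were taken as replicates because the study's methods name 3 per group.

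Groups came from the deposited labels. The 33 genes, the other gene lists and the alternatives were chosen with earlier results of these data known. The rule for values on every array took the 2 highest and 2 lowest average arthritis effects of each role, with Alas2, Slc4a1, Klf1, Gata1, Epor, Tfrc and Fech, and up to 4 genes of each other list by size. Alternatives were no filter, all features of a gene averaged, each array's mean subtracted, quantile normalization, array weights, trended and robust variances, ordinary linear regression, the compared groups alone, each array left out, and the arrays with unexpected Mmp8 or Xist signal left out. Promoter sequences are those of RefSeq for GRCm38.p6.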

Additional observations from a re-analysis of the deposited data

How the results depend on the processing

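All 6 comparisons were run under 22 or 23 settings, and 0 members passed for genotype or interaction under any of them. No effect that passed in the main fit changed direction. Klf1 in Mmp8-/- mice, which passed in 2 of 23 settings and not in the main fit, ran from -0.88 to 0.12 over them. In Mmp8-/- mice the 4 falls became 2 with the compared groups alone, 1 with ordinary linear regression, 1 with array weights, 1 (with 1 rise) after quantile normalization, and 0 without the Mmp8-/- control array with Mmp8 signal, alone or with both Xist arrays. Leaving out 1 array gave 0 (Mmp8-/- control mouse 2) to 6 falls. In Mmp8+/+ mice the 14 falls became 7 with ordinary linear regression and ranged from 8 to 18 with 1 array left out, lowest without arthritic mouse 1 or control mouse 2. The 0 rises there became 1 with array weights and 1 after quantile normalization, and 0 to 1 with 1 array left out. In the average over genotypes the 22 falls became 11 with ordinary linear regression and 12 without the Xist arrays and the array with Mmp8 signal. The 2 rises became 1 with ordinary linear regression, 1 after quantile normalization, 0 without the Xist arrays, with or without the array with Mmp8 signal, and 1 to 2 with 1 array left out. Alas2, Bpgm, Gata1, Hemgn, Sptb and Trim10 fell in Mmp8+/+ mice in all 23 settings. The share of all features that passed under these settings was not counted, so the counts are not set against it. Leaving out both Xist arrays and the array with Mmp8 signal together left 1 Mmp8-/- control mouse. No paired analysis was possible because the labels give no replicate numbers shared by the groups.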

Other observations

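Genes that handle iron and heme outside red cells also changed. Of 23 tested, 11 fell and 6 rose with arthritis in the average over genotypes, where 23.2% of all features fell and 19.8% rose. The median log2 fold change was -0.42, and the effects ran from -2.27 to 0.93. The 4 genes with the largest effects were falls. Cp, the ferroxidase ceruloplasmin, was at -2.27 (SE 0.20, adjusted p = 1.17e-06 in limma). Trf, transferrin, was at -1.56 (SE 0.13, adjusted p = 5.12e-07), Slc40a1, the iron exporter ferroportin, at -1.37 (SE 0.15, adjusted p = 7.58e-06) and Heph, the ferroxidase hephaestin, at -1.24 (SE 0.16, adjusted p = 3.98e-05). These 4 genes fell in both genotypes, with log2 fold changes of -2.33 to -1.30 in Mmp8-/- mice and -2.21 to -1.09 in Mmp8+/+ mice. In all 4 cases other cells of the joint can be a source beside the marrow, and the source was not measured.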
